A study of Arabidopsis thaliana with 3 samples.

Results

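Among the RNAs crosslinked to TSN1 in Arabidopsis thaliana seedlings, genes of the types snRNA (small nuclear RNA), snoRNA (small nucleolar RNA), rRNA (ribosomal RNA), lncRNA (long non-coding RNA) and ncRNA (other non-coding RNA) carried 50 of 5673 binding sites, in 36 of 1504 target genes. They were chosen by the gene type in the authors' annotated site table, and transfer RNA was left out. No score or peak entered that choice, although every member has at least 1 site by construction. RNA-protein contacts were mapped by iCLIP2, in which ultraviolet light joins protein to RNA in the living plant and reverse transcription stops at the joined nucleotide. The plants carried pTSN1::GFP:TSN1 (TSN1, Tudor staphylococcal nuclease 1, fused to green fluorescent protein and driven by its own promoter) in Col-0, a background described as wild-type. They were 14 days old, grown in 16 h light and 8 h dark, irradiated with 2000 mJ/cm2 at 254 nm and collected 10 h after lights on, as whole plants enriched in aerial tissue, with 3 plates pooled per replicate. There was 1 group of 3 replicates and no control pull-down, and the deposited lists merge the replicates. So no value could be given per replicate, read depth is unknown, and crosslinking to TSN1 could not be separated from RNA that stays on the beads. Intervals below are 95% intervals, by Wilson's method for shares and from ranked scores for medians. They cover the counting of sites or peaks and not differences between plants, and no statistical test was made.

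The spliceosome removes introns and is built on snRNAs. U1 pairs with the start of the intron and U2 with its branch point. U4 carries U6 in an inactive form, U5 holds the exon ends, U6 takes part in catalysis, and U12 does the work of U2 in a minor set of introns. Small nucleolar RNAs guide chemical modification of rRNA or, as U3 does, its processing from a long precursor. Animal relatives of TSN1 are known to contact spliceosomal particles, and in plants the protein is known mainly from the cytoplasm, where rRNA works in ribosomes. The files and the gene table used here hold no sequences, so none is shown.

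Class medians of the site score differed, but only rRNA, with 1 gene, stood clearly apart. The score is the authors' own value per site, with no stated unit, so it serves for order and not as an amount of binding. Over all 5673 sites the median was 12.5, with quartiles of 8.24 and 19.1. The 23 snRNA sites had a median of 18.5 and ran from 5.46 to 55.1. The 12 snoRNA sites had a median of 8.83, with a lowest of 4.38 and a highest of 29.8. The 5 rRNA sites ran from 438 to 708, far above every other member. The 8 lncRNA sites had a median of 12.6 (1.37 to 22.2) and the 2 ncRNA sites scored 14.0 and 16.3. For comparison, sites in protein-coding genes had a median of 12.3 and those in tRNA genes 51.4. Apart from rRNA, then, the non-coding classes stayed within the range of sites in protein-coding genes (0.487 to 318), and all of their sites but the highest one, in U2.4, lay below the tRNA median.

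A score above the upper quartile of all sites was reached by 16 of the 50 sites (32.0%, 20.8 to 45.8), where the share over all sites is 25%. All 5 rRNA sites, 9 of 23 snRNA sites (39.1%, 22.2 to 59.2), 1 of 12 snoRNA sites, 1 of 8 lncRNA sites and neither ncRNA site were among them. Without rRNA the count was 11 of 45 (24.4%, 14.2 to 38.7), which is near the share over all sites. Within the snRNAs it was 7 of 14 for U2 and 2 of 9 for the others, and both intervals (26.8 to 73.2 and 6.32 to 54.7) are wide.

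**Figure D1:**
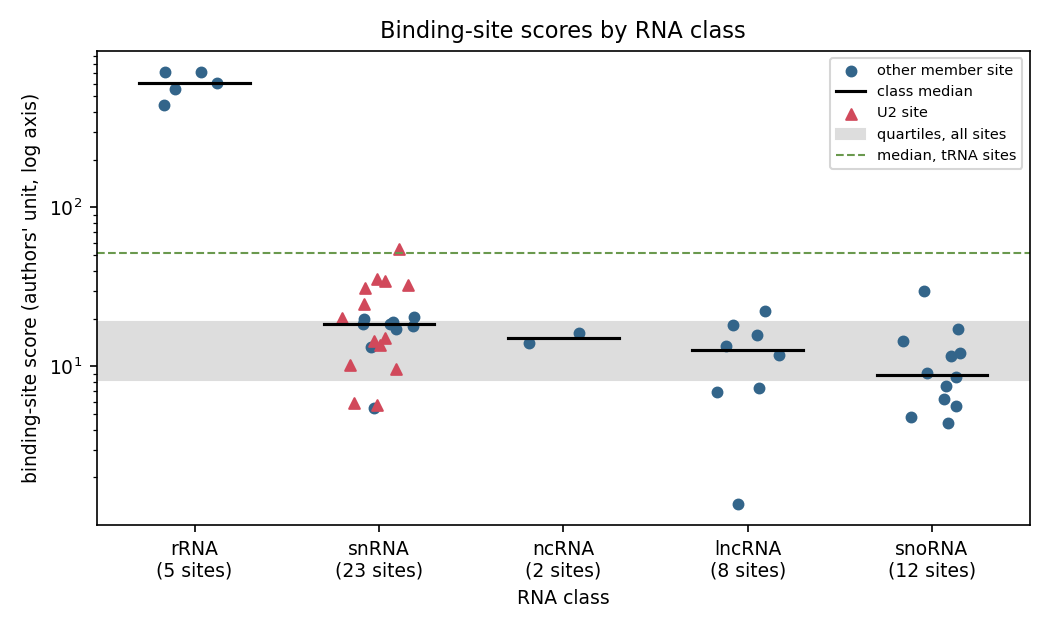
Score of each of the 50 binding sites (points, log axis, authors' unit) by RNA class, with U2 sites as triangles, black bars for class medians, a grey band for the quartiles of all sites and a dashed line for the tRNA median. The 5 rRNA sites lie between 438 and 708, and the highest snRNA sites, from 55.1 down to 24.7, are U2 sites.

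Ribosomal RNA was represented by 1 gene, AT3G41768, with 1808 nt on the plus strand of chromosome 3. Its sites fell into 2 clusters. The first cluster lay at 14198126 to 14198130, 14198131 to 14198135 and 14198150 to 14198154, with scores of 603, 438 and 559. The second lay at 14198928 to 14198932 and 14198963 to 14198967, and both of its sites were at 708, the highest score in the list. In the whole list 4 sites had that score, and the highest tRNA site reached it too. Counted from the annotated start of the gene, the site centres were at 452, 457, 476, 1254 and 1289 nt.

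Called peaks, the authors' 1-nt crosslink positions from which sites are built, gave the same pair of clusters with more detail. The gene held 18, of which 10 lay inside sites. Of the 6 peaks at the ceiling of 708, the pair at 1278 and 1324 nt lay in no site, and neither did a peak of 501 at 1211 nt. A further pair at 372 and 373 nt (149 and 303) stood upstream of the first cluster, and the peak nearest the start, at 251 nt, scored 1.11. No called peak lay between 480 and 1211 nt. Over all called peaks 11 were at 708. Because scores end there, peaks and sites at that value cannot be ordered among themselves.

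The near-identical rRNA gene on chromosome 2, AT2G01010, has the same length and had no site. It held 3 called peaks, at 1254, 1289 and 1326 nt, with scores of 1.21, 2.76 and 13.6. Those at 1254 and 1289 nt fall on the positions at which the chromosome 3 copy has its ceiling sites, and that at 1326 nt lies just past the ceiling peak of that copy at 1324 nt. Near-identical copies may share reads, which was not tested. How the authors assigned such reads is not given in the sources used here, so the copy that was bound is uncertain. None of the 7 annotated plastid rRNA genes, nor either of the 164 nt nuclear rRNA genes, held a called peak.

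The rRNA label covers only the first stretch of this unit. Downstream of AT3G41768 the reference table lists the lncRNA AT3G06355, the 164 nt rRNA gene AT3G41979 inside it, and AT3G06365, a 3994 nt locus of type misc_RNA. In the authors' table, 9 further sites in AT3G06365 were assigned jointly to the last 3 genes and carry no gene type, so they are not members. They lay between 14201001 and 14203274 with scores from 45.9 to 165 (median 89.3), below the 438 of the lowest rRNA site and above the upper quartile of all sites. AT3G06365 held 83 called peaks, or 2.08 per 100 nt, against 0.996 per 100 nt in AT3G41768. With these 9 sites the unit from AT3G41768 to the end of AT3G06365 held 15 sites and 114 called peaks in 6532 nt.

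The lncRNA AT3G06355 belongs to the same stretch. Its single site, at 14199606 to 14199610, scored 18.3, and all 5 of its called peaks lay within 15 to 36 nt of its start. A further 8 called peaks, with scores up to 12.2, filled the 90 nt between the rRNA gene and this lncRNA, which no gene covers. No called peak fell in AT3G41979.

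**Figure D2:**
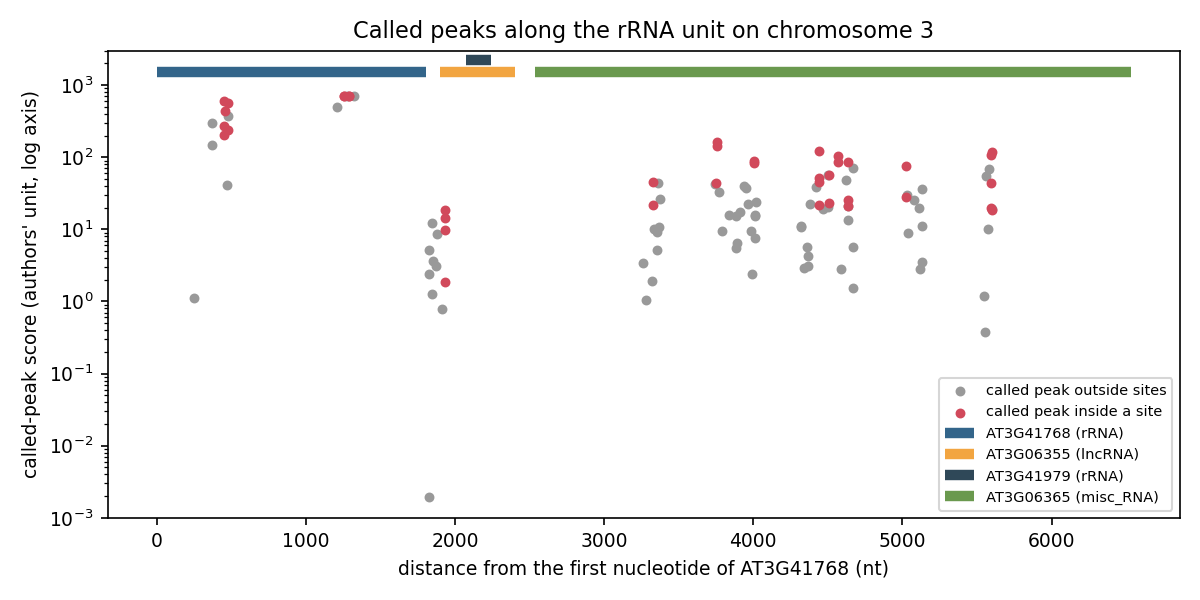
Score of each called peak (log axis, authors' unit) along the rRNA unit of chromosome 3, in nt from the first nucleotide of AT3G41768; red points lie inside a binding site and bars mark the annotated genes. Scores reach 708 in AT3G41768, 18.3 in the lncRNA and 165 in AT3G06365, and the 164 nt rRNA gene has none.

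U2 was the most frequent named RNA, with 14 of the 23 snRNA sites in 9 genes and 113 called peaks. The highest site was in U2.4 (AT3G56825, chromosome 3, 21041913 to 21041917, minus strand), with a score of 55.1 and rank 254 of all sites. U2.1 followed with 35.5 (chromosome 1, 5758488 to 5758492), U2.7 with 34.4 (chromosome 5, 24713499 to 24713503), U2.6 with 32.5 (chromosome 3, 21004591 to 21004595) and U2.3 with 31.3 (chromosome 3, 21397541 to 21397545). The top sites of U2.14, U2.10, U2.5 and U2.11 scored 24.7, 20.2, 15.0 and 13.6. Of the 14 U2 sites 10 were above the median of all sites, among them the top site of every U2 gene. The lower sites were at 14.4 and 5.91 in U2.3, at 9.65 and 5.70 in U2.14 and at 10.2 in U2.5.

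The U2 sites lay at like positions in different copies. In the 5 U2 genes with spans of 189 to 195 nt, a site was centred at 99 nt in U2.5, 102 nt in U2.14, 103 nt in U2.10, 105 nt in U2.11 and 109 nt in U2.1, counted from the annotated start. Other sites of these genes were at 57 and 66 nt in U2.14 and at 121 nt in U2.5. Of their 60 called peaks, 20 lay from 99 to 109 nt, a window set after the values were seen. The remaining 4 genes, U2.3, U2.4, U2.6 and U2.7, have annotated spans of 551 to 883 nt. Their positions (335 to 695 nt) thus cannot be set beside these by distance from the annotated start. Their called peaks nonetheless covered only 69 to 105 nt of the span. Copies of U2 are near-identical and may share reads, which was not tested, so the 9 genes cannot be taken as 9 independent observations.

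Called peaks around the top site showed which stretch was covered. Of the 113 called peaks of U2, 73 lay upstream of the centre of the top site of their gene and 31 downstream, 19 of them by more than 3 nt. U2.1, U2.6, U2.7 and U2.14 had no peak more than 3 nt downstream. U2.4 had peaks at 699, 700 and 717 nt, with scores of 5.99, 0.846 and 20.6, beyond its top site at 695 nt. U2.10 had such peaks at 120 and 123 nt (3.95 and 15.6) and U2.11 had 1 at 125 nt (2.32). In U2.5 they reached furthest, 51 nt downstream of its top site at 121 nt, with peaks at 153, 163 and 172 nt (5.63, 0.470 and 1.67). U2.3 had 11 of its 15 peaks downstream of its top site at 590 nt, among them those of both of its lower sites. The top site is not at the same place in every copy, so these counts depend on which site scored highest. U2.3 peaks at 582, 590, 615 and 637 nt had the same spacing as U2.4 peaks at 662, 670, 695 and 717 nt. In U2.1 the highest called peak, 39.6 at 82 nt, lay outside the site, and in U2.14 a peak of 22.8 at 78 nt did so too. U2 peaks extended upstream of the top site in all 9 genes, over distances of 19 nt in U2.11 to 106 nt in U2.5.

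**Figure D3:**
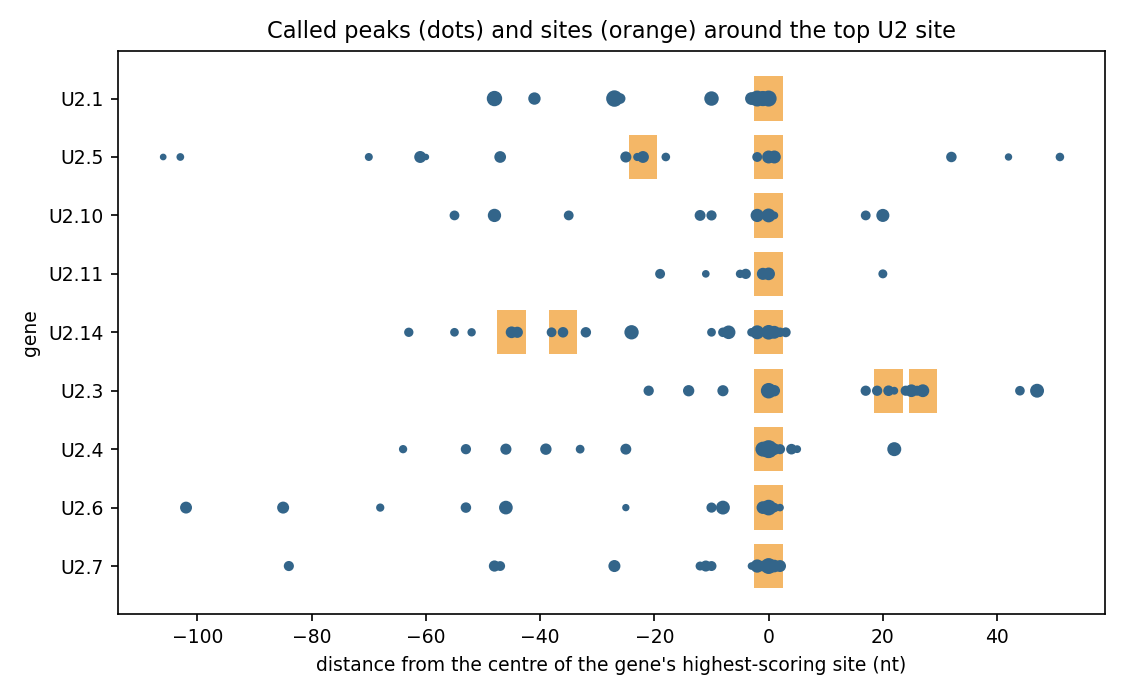
Called peaks (dots, larger for higher scores) and binding sites (orange) of the 9 U2 genes, in nt from the centre of the highest-scoring site of each gene. Peaks lie upstream of that centre in all 9 genes, and in U2.1, U2.6, U2.7 and U2.14 none lies more than 3 nt downstream. The highest-scoring site is not at the same place in every copy.

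The other spliceosomal RNAs had 9 sites in 7 genes. U1.5 (AT1G08115, chromosome 1, minus strand) had 2 sites, at 2538233 to 2538237 and 2538210 to 2538214, with scores of 19.8 and 18.5. Their centres were 4 and 27 nt from the annotated start, and 10 of its 11 called peaks lay within the first 33 nt. U4.2 (AT3G06900, chromosome 3, 2178261 to 2178265) had 1 site of 20.4 at 81 nt of 153. The single site of U5.6 (AT1G04263, chromosome 1, 1215740 to 1215744) scored 19.0 at 90 nt of 101, near its annotated end, while a peak of 15.8 at 44 nt lay in no site. The sites of U1.5, U4.2 and U5.6 thus lay near the start, in the middle and near the end of the annotated RNA.

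U6 sites lay within 30 nt of the annotated start in both genes that had one. U6.5 (AT4G08755, chromosome 4, 15965227 to 15965231) had a site of 17.9 at 30 nt of 100. U6.6 (AT4G09135, chromosome 4) had sites of 13.2 and 5.46 at 21 and 29 nt of 95. All 9 called peaks of U6.5 lay within 50 nt of the start and all 7 of U6.6 within 41 nt. The gene listed as U6acat (AT5G40395, chromosome 5, 16166240 to 16166244) had a site of 18.5 at 146 nt of its 208 nt span, and a peak of 16.7 at 132 nt that lay in no site.

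U12, the U2 counterpart for minor introns, had 1 site under its own label (AT1G61275, chromosome 1, 22603132 to 22603136) with a score of 17.2 at 14 nt of 175. Its span overlapped 2 more sites under other labels. One, at 22603119 to 22603123, was labelled intergenic, scored 20.7 and was centred on the first nucleotide of U12. The other, at 22603252 to 22603256, was labelled 5' untranslated region of AT1G61280, scored 6.06 and was centred at 134 nt. So U12 held 3 sites by position and 1 by label, with 14 called peaks from 1 to 136 nt.

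**Figure D4:**
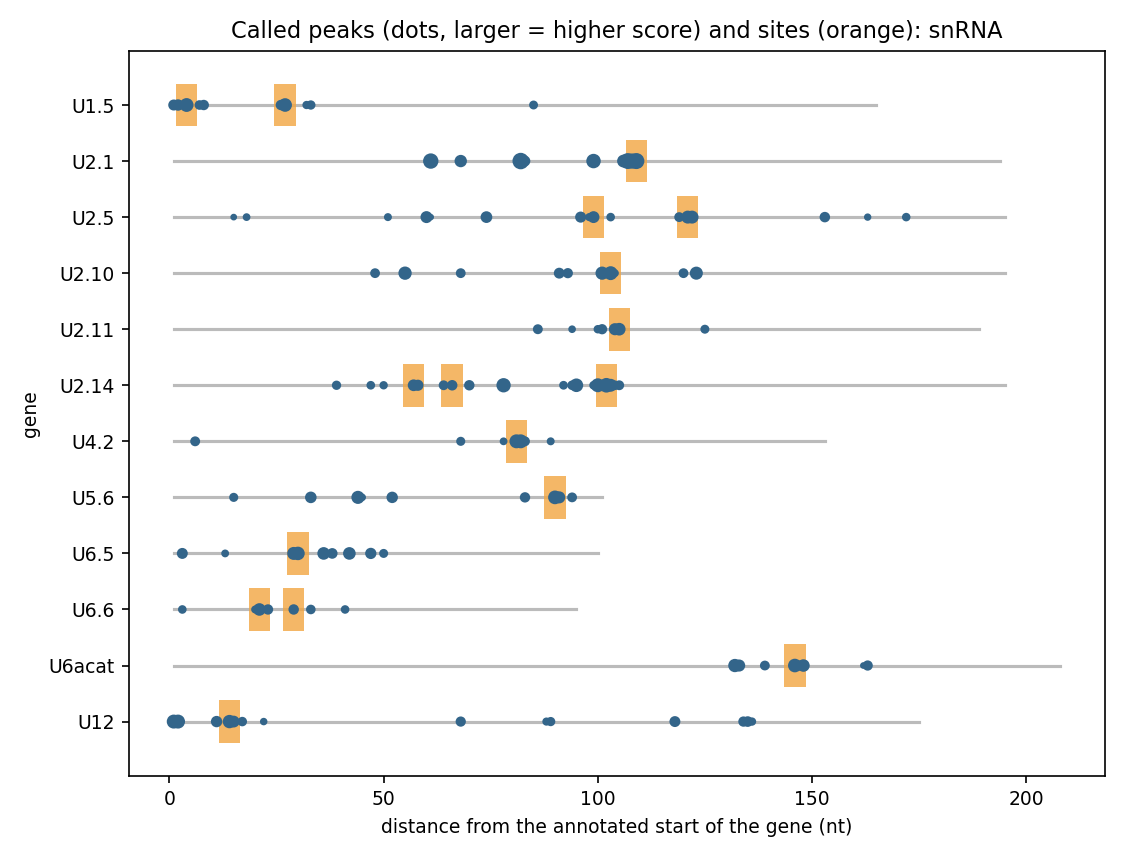
Called peaks (dots, larger for higher scores) and sites under the gene's own label (orange) along the 12 snRNA genes with spans of 95 to 208 nt (grey lines), in nt from the annotated start. U2 sites gather at 99 to 109 nt, U6 sites at 21 to 30 nt and the U1 sites at 4 and 27 nt.

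Many annotated copies of these RNAs carried no site. The reference table lists 82 snRNA genes, of which 16 (19.5%, 12.4 to 29.4) had a site of their own label and 21 a called peak. Over all annotated nuclear genes 3.87% had a site. Of nuclear protein-coding genes 5.04% had a site and 7.33% a called peak on either strand. Of 23 U2 entries 9 had a site and 10 a called peak. The counts with a site were 1 of 14 for U1, 1 of 11 for U4, 1 of 14 for U5 and 2 of 14 for U6. The table lists some RNAs more than once at different positions and also lists pseudogene-like fragments, so these counts are of entries and not of working genes. The share with a site also follows which RNAs are expressed and which copies reads can be assigned to, neither of which was measured.

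The 5 snRNA genes with called peaks and no site held 4 to 8 peaks each. U1.4 had 8 peaks, with the highest, 11.5, at 75 nt. U2.10b/12 had 7, with the highest, 11.4 and 11.2, at 93 and 66 nt. Another 3 of its peaks lay at 101 to 103 nt, within the range of the U2 site centres above, with scores of 8.80, 0.626 and 1.01. U6-29 had 5, up to 14.8. U1.2 and U5.5 had 4 each. In U1.4 and U1.2 the highest peaks, at 75 and 18 nt, were not at the positions of the U1.5 sites, while lower peaks of U1.4 at 33 and 34 nt (3.43 and 10.9) stood beside the U1.5 peak at 33 nt (2.96).

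Small nucleolar RNAs had 12 sites in 11 genes, all but 1 with a single site. The highest was in AT2G08390 (chromosome 2, 12975897 to 12975901, minus strand), with a score of 29.8 and rank 663, and the same gene had a site of 8.58 at 12975912 to 12975916. AT1G04527 followed with 17.1 (chromosome 1, 2111124 to 2111128), AT4G39361 with 14.5 (chromosome 4, 18304920 to 18304924), AT1G08353 with 12.2 and AT1G08347 with 11.5. The sites of AT1G06667, AT3G21805, AT1G04517, AT1G06243 and AT1G09787 scored 9.08, 7.52, 5.64, 4.78 and 4.38. U3B (AT5G53902, chromosome 5, 21888361 to 21888365), the only one with a name, had a site of 6.23 and a higher called peak, 9.68, outside it. Only 3 of the 12 snoRNA sites were above the median of all sites, against 18 of 23 for snRNA.

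In the 10 snoRNA genes with spans of 66 to 120 nt, most sites lay nearer to the annotated start than to the end. The highest snoRNA site, in AT2G08390, did not, and was centred at 47 nt of 87. Their centres ran from 5 nt in AT1G09787 to 54 nt in AT1G04517, with AT1G04527 and AT1G06667 both at 22 nt, AT1G08347 and AT1G08353 both at 33 nt and AT4G39361 at 32 nt. Of the 12 snoRNA sites 9 lay at a relative position of up to 0.5, where 0 is the annotated start and 1 the end, and the median was 0.343. Of the 95 called peaks in these 11 genes 55 did so. The same share over all sites was not counted, and 12 sites are few for a statement on position. The genes held 5 to 14 called peaks each, with a median of 9.52 per 100 nt of span, against 4.88 for the snRNA genes, some of which have long spans. Whether a snoRNA belongs to the methylation or the pseudouridylation guides is not stated in the files, so no comparison of these kinds was made.

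**Figure D5:**
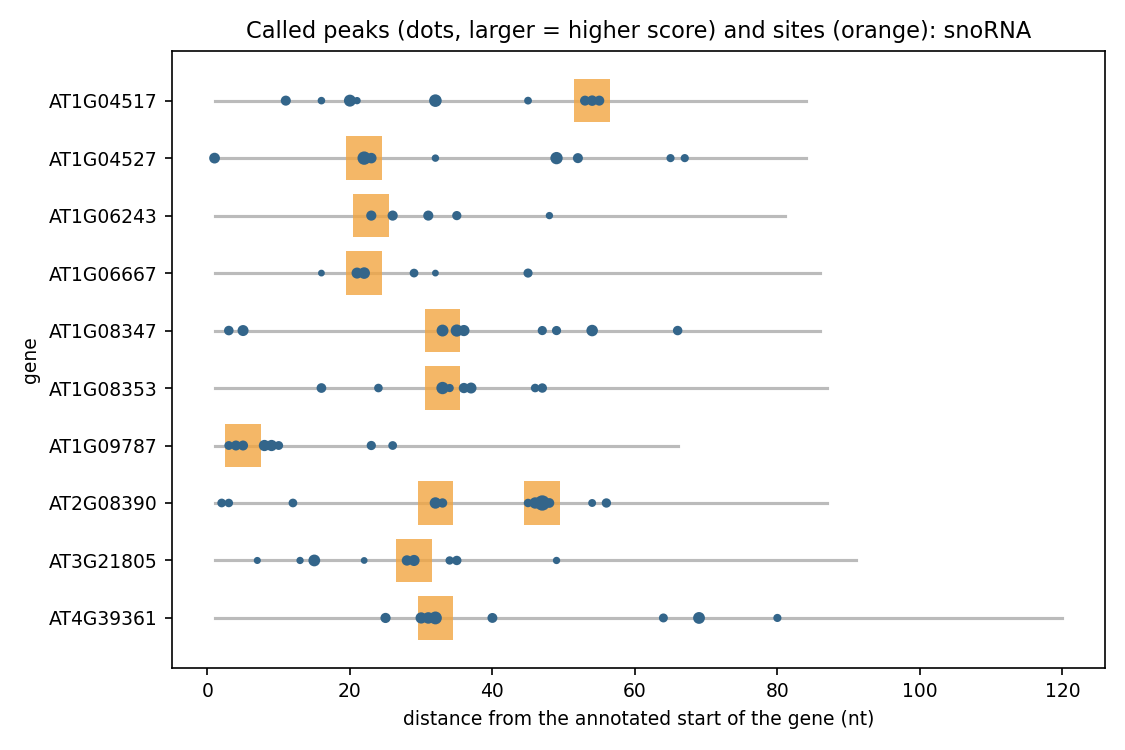
Called peaks (dots, larger for higher scores) and sites under the gene's own label (orange) along the 10 snoRNA genes with spans of 66 to 120 nt (grey lines), in nt from the annotated start. Most site centres lie between 22 and 54 nt, and AT1G09787 has its site at 5 nt.

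Of 287 annotated snoRNA genes 11 (3.83%, 2.15 to 6.73) had a site of their own label, close to the 3.87% of all annotated nuclear genes. A further 7 had called peaks and no site. The most peaks were in AT4G39363 with 10 (highest 10.2), AT5G07725 with 8 (highest 11.2), AT5G02675 with 7 (highest 6.55) and AT3G47347 with 5 (highest 15.1). AT4G39363 and AT4G39364, which follow the target AT4G39361 on chromosome 4, held 10 and 4 peaks, and their highest scores were 10.2 and 1.01 against 14.5 in AT4G39361. Of these neighbours, AT4G39361 was the one with a site.

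Of the 10 lncRNA and ncRNA sites, 2 lay in a snoRNA gene. The site of the ncRNA AT1G16635 (chromosome 1, 5686137 to 5686141, score 16.3) was inside the snoRNA gene AT1G05247, at 41 nt of 87, and 9 of the 11 called peaks of the ncRNA lay in that snoRNA. The site of the lncRNA AT1G05913 (chromosome 1, 8756407 to 8756411, score 15.7) was inside the snoRNA gene AT1G05917, at 51 nt of 99, together with all 11 called peaks of the lncRNA. These sites count as lncRNA or ncRNA by label and as snoRNA by position. The site of AT3G06355 lay in the rRNA unit, as above.

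The remaining long RNAs had no snoRNA at the site. AT4G06810 (chromosome 4, 10180527 to 10180531) had the highest lncRNA site, 22.2, which also lay in the lncRNA gene AT4G06805. It held 23 called peaks from 145 to 417 nt of its 632 nt, with the highest, 23.0 at 224 nt, in no site. AT1G05163, described in the target table as antisense to AT1G15410, had sites of 13.4 and 6.88 (chromosome 1, 5298012 to 5298016 and 5297912 to 5297916), and both also lay in the ncRNA gene AT1G15405. AT1G09797 had sites of 11.9 and 7.27 (chromosome 1, 29428034 to 29428038 and 29428115 to 29428119), which also lay in the lncRNA gene AT1G09793. The ncRNA AT1G70185 had a site of 14.0 (chromosome 1, 26429776 to 26429780) and a higher peak, 21.4 at 91 nt, outside it. AT5G09125 (chromosome 5, 25291063 to 25291067) had the lowest member site, 1.37, rank 5666 of 5673. The 8 lncRNA sites thus ran from rank 1109 to rank 5666.

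Annotation overlapped in part of the members, and the share of all target genes with such an overlap was not counted. In 20 of the 36 genes the span overlapped another annotated gene, and 19 of the 50 sites lay in such an overlap, among them U2.1, U2.11, U4.2, U6acat, U3B and 1 of the U2.3 sites, each inside the span of a protein-coding gene. The reference table gives no strand, so sense and antisense overlaps were not told apart. All 390 called peaks in member spans were on the strand of the sites, and none was on the other strand. Of 3480 annotated lncRNA genes 67 held a called peak, where 7.33% of nuclear protein-coding genes did. Of these 67, 10 overlapped no protein-coding gene. A site of their own label was found in 6 of the 3480 (0.172%, 0.0790 to 0.376), where 3.87% of all annotated nuclear genes had one. The share also follows which of these RNAs are expressed, which was not measured. Another 36 lncRNA genes held only sites with other labels. A further 18 lncRNA genes held at least 5 called peaks and no site, from 5 to 27 peaks each, and 16 of them overlapped a protein-coding gene. The most peaks were in AT2G35859 (27, highest 11.6) and the highest score, 19.1, was in AT5G03185. In the other two, AT2G04435 and AT5G02645, all 7 peaks of each were those of U2.10b/12 and of the snoRNA AT5G02675 given above. Of 439 annotated ncRNA genes 2 (0.456%, 0.125 to 1.65) had a site of their own label. The ncRNA AT1G79075 held 6 peaks and no site, with a highest score of 6.24.

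Sites at the very start of the annotated RNA were a further group, picked out after the values were seen. Within 5 nt of the annotated start, 6 of the 36 genes had a site of any label, all of them among the 27 snRNA and snoRNA genes. The share of all target genes, or of tRNA genes, with such a site was not counted. The 6 genes are thus a description and no trait of these classes. These were U12 and AT1G04527 on the first nucleotide, U1.5 and AT1G09787 at 4 and 5 nt, and AT1G04517 and AT2G08390 just upstream of it. Only 2 of the 6 sites carried the label of the gene. The site beside AT2G08390 (chromosome 2, 12975945 to 12975949) was labelled intergenic and scored 34.4, above the 29.8 of the highest site in the gene. The site beside AT1G04517 scored 16.1 and was assigned jointly to this gene, a tRNA gene and a misc_RNA gene, and that at AT1G04527 scored 6.43.

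The share of called peaks inside sites differed between the classes. In the spans of the members 129 of 390 called peaks (33.1%, 28.6 to 37.9) lay in a site, against 17.2% over all called peaks, 17.4% in the spans of protein-coding targets and 53.0% in those of tRNA targets. By class the share was 10 of 18 for rRNA, 68 of 178 for snRNA (38.2%, 31.4 to 45.5), 29 of 95 for snoRNA (30.5%, 22.2 to 40.4), 20 of 78 for lncRNA (25.6%, 17.3 to 36.3) and 2 of 21 for ncRNA. Every member has a site by construction, which raises its share against that over all called peaks. Neighbouring peaks share sites, so the intervals are too narrow. In 9 of the 36 genes the highest called peak lay outside every site. These were 1 of 16 snRNA, 4 of 11 snoRNA, 2 of 6 lncRNA and both ncRNA genes. The share over all target genes was not counted, so this count is no result about the members.

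The messenger RNAs of proteins that work with these RNAs were looked at separately. Of 25 protein-coding genes named for the small nuclear ribonucleoproteins, Sm-like proteins, fibrillarin or other core proteins of snoRNA particles, 1 had a called peak and the same 1 had a site, where 7.33% of annotated nuclear protein-coding genes had a called peak and 5.04% a site. The count is near these shares and is no result about the list. The gene with both was AT2G18740, a small nuclear ribonucleoprotein family gene, with 8 called peaks (highest 10.6) and 1 site. U1-70K, U1A, U2A' and U2B'', proteins bound to U1 or U2, FIB1 and FIB2, the fibrillarins that methylate rRNA, and NAP57, the pseudouridine synthase of snoRNA particles, had none. The list was matched by symbol, synonym or description and is not complete.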

How the data were processed

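The 4 deposited lists merge 3 replicates. Per the submitters' processing notes, the build was TAIR10 and the tools were bedtools 2.27.1, FastQC 0.11.5, SAMtools, STAR 2.7.3a and UMI-tools 1.0. Which peak caller was used, how replicates were merged and how reads with several matches were treated is not given in the sources used here. Called peaks and sites carry a deposited score with no stated unit. The authors' target table gives a count of sites per gene, which equalled the sites listed in all 36 member genes. In 50 of 50 sites the site score equalled that of the best called peak within. Site coordinates are 1-based, from the authors' table.

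Gene spans and biotypes came from a RefSeq gene table of TAIR10.1, whose coordinates are not printed. All 50 sites lay in the span of their own gene, as did 5322 of 5331 nuclear sites of a single gene (99.8%), and all 36 biotypes equalled the authors' types. Positions are site centres counted from the start of that span on the strand of the sites. Called peaks were counted in spans on that strand, and in genes without a site on either strand.

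Shares were computed in Python 3.11.15 with SciPy 1.17.1, and the code that assigns peaks to sites was checked on simulated data. Depth is unknown, so precision rests on counts of sites alone. Members and lists were chosen with earlier results of these data known. All members were named; genes without a site were named where they held at least 5 called peaks (lncRNA genes by range and examples), other such genes by exception. The promoter and site sequences planned were not shown for lack of a sequence file. Alternatives covered score thresholds, copies, labels and windows.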

Additional observations from a re-analysis of the deposited data

How the results depend on the processing

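Leaving out replicates could not be run because the lists hold no value per replicate. No paired analysis was possible because there is 1 group and no value per replicate. Of 72 alternative values, 53 stayed within 1.5 times the count, or within the interval of the share or median. Sites above the median score numbered 32 over all 5 classes, 3 for snoRNA and 4 for lncRNA. Counting each named RNA once left 27 RNAs in all, 7 for snRNA and 1 for rRNA. Taking the median score of the called peaks inside each site lowered the class medians to 11.6 over all, 13.5 for snRNA and 403 for rRNA. At the upper decile of all sites, exceeded by 10% of them, the share was 16.0% over all, 13.0% for snRNA and 0% for snoRNA and lncRNA. With only called peaks above the median score, the share inside sites was 44.2% over all, 46.8% for snRNA and 51.1% for snoRNA. Within 50 nt of sites it was 39.2% for lncRNA. With the untyped sites of the rRNA unit, an alternative chosen after seeing the data, rRNA had 14 sites and a median score of 120. The thresholds, counting units and windows changed by construction, and no other cause was tested. The few sites per class and the unknown depth limit all shares.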
